A study of Mus musculus with 4 samples.

Results

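The HoxC cluster is the row of Hoxc genes on mouse chromosome 15, and all 9 of them are described here (Hoxc4, Hoxc5, Hoxc6, Hoxc8, Hoxc9, Hoxc10, Hoxc11, Hoxc12 and Hoxc13), out of 21887 annotated protein-coding genes. They were chosen by name. Their CTCF and RAD21 peaks were those with a summit in the 102.7 to 103.2 Mb window of chromosome 15 (build mm10), which came to 21 of 47931 CTCF peaks in wild type, 26 of 34499 in InsCBS5-10, 32 of 36589 in DelCBS7-10 and 13 of 19610 RAD21 peaks in InsCBS5-10. Rows of a list with the same start and end were counted as 1 peak at the summit of highest fold enrichment.

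Binding was measured by ChIPmentation in mouse gastruloids, aggregates of stem cells that elongate like an embryo's trunk and tail, which were pooled and fixed at 96 h. Wild-type gastruloids (CTCF) were set beside 2 mutants of the HoxB cluster on chromosome 11. Both mutants carry the HoxB Del allele over an allele with Del(i9-13), into which CTCF binding sites were placed as Ins(CBS5-10). The mutant with these alleles alone is called InsCBS5-10 (CTCF and RAD21), and the one that also has Del(CBS7-10) on top of the insertion is called DelCBS7-10 (CTCF). The labels give no change to HoxC in either mutant, and they do not say from how many stem cell clones the gastruloids came. There was 1 library per group, so no difference between lists has a replicate check and no test was made. One more list, of 59484 peaks and with 37 in the window, has no sample in the labels. Its peak names read RAD21 and wt, so it is called the unlabelled RAD21 list here and is given beside the others without a group. The lists hold no expression, so neither the identity of the cells nor the activity of the Hoxc genes could be checked.

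Hox genes encode homeodomain transcription factors that give cells their position along the head-to-tail axis. Within a cluster they lie in the order in which they are used: Hoxc4 marks more anterior levels and Hoxc13, the last gene, the most posterior. CTCF binds DNA in a fixed orientation and halts cohesin, the ring complex that extrudes chromatin loops. RAD21 is the subunit by which cohesin is usually mapped. CTCF sites between Hox genes are known to separate active from silent parts of a cluster.

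The genes span 115.7 kb, from the start of Hoxc13 at 102921131 to the end of Hoxc4 at 103036856 (annotation GRCm38.p6, the assembly that mm10 names). From the posterior end they are Hoxc13 (102921131 to 102928814), Hoxc12 (102936826 to 102938609), Hoxc11 (102954526 to 102956701), Hoxc10 (102966796 to 102971898), Hoxc9 (102977032 to 102984444), Hoxc8 (102990539 to 102994275), Hoxc6 (102998226 to 103011882), Hoxc5 (103014008 to 103017429) and Hoxc4 (103018097 to 103036856). They are short genes, of 1.78 to 18.8 kb with a median of 5.10 kb, against a median of 17.4 kb over 20278 protein-coding genes outside chromosome 11. Between Hoxc12 and Hoxc11 lies Hotair, a long noncoding RNA (102944062 to 102947946), and the microRNA genes Mir196a-2 and Mir615 lie between Hoxc10 and Hoxc9 and within Hoxc5.

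CTCF peaks of the cluster fell into 13 sites, where peaks of different lists that overlapped by 1 bp or more were taken as 1 site. They were of 2 kinds. At 4 sites between genes CTCF was called in wild type and in InsCBS5-10, and RAD21 was called there too. The other 9 sites each overlapped the body of a Hoxc gene. There CTCF was called in DelCBS7-10 (9 sites) and InsCBS5-10 (2 sites), never in wild type. RAD21 was not called there in InsCBS5-10. DelCBS7-10 has no RAD21 list, so at the 7 sites called in DelCBS7-10 alone RAD21 was read in a mutant that has no CTCF peak there. Without the DelCBS7-10 list these 7 sites drop out and the Hoxc11 site parts into 2, which leaves 3 sites without a wild-type peak. Over all chromosomes, 14.9% of 56026 CTCF sites had a mutant peak and no wild-type peak. Called in all 3 CTCF lists were 49.0%, against 2 of 13 in the cluster. These shares were not matched for peak strength.

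**Figure D1:**
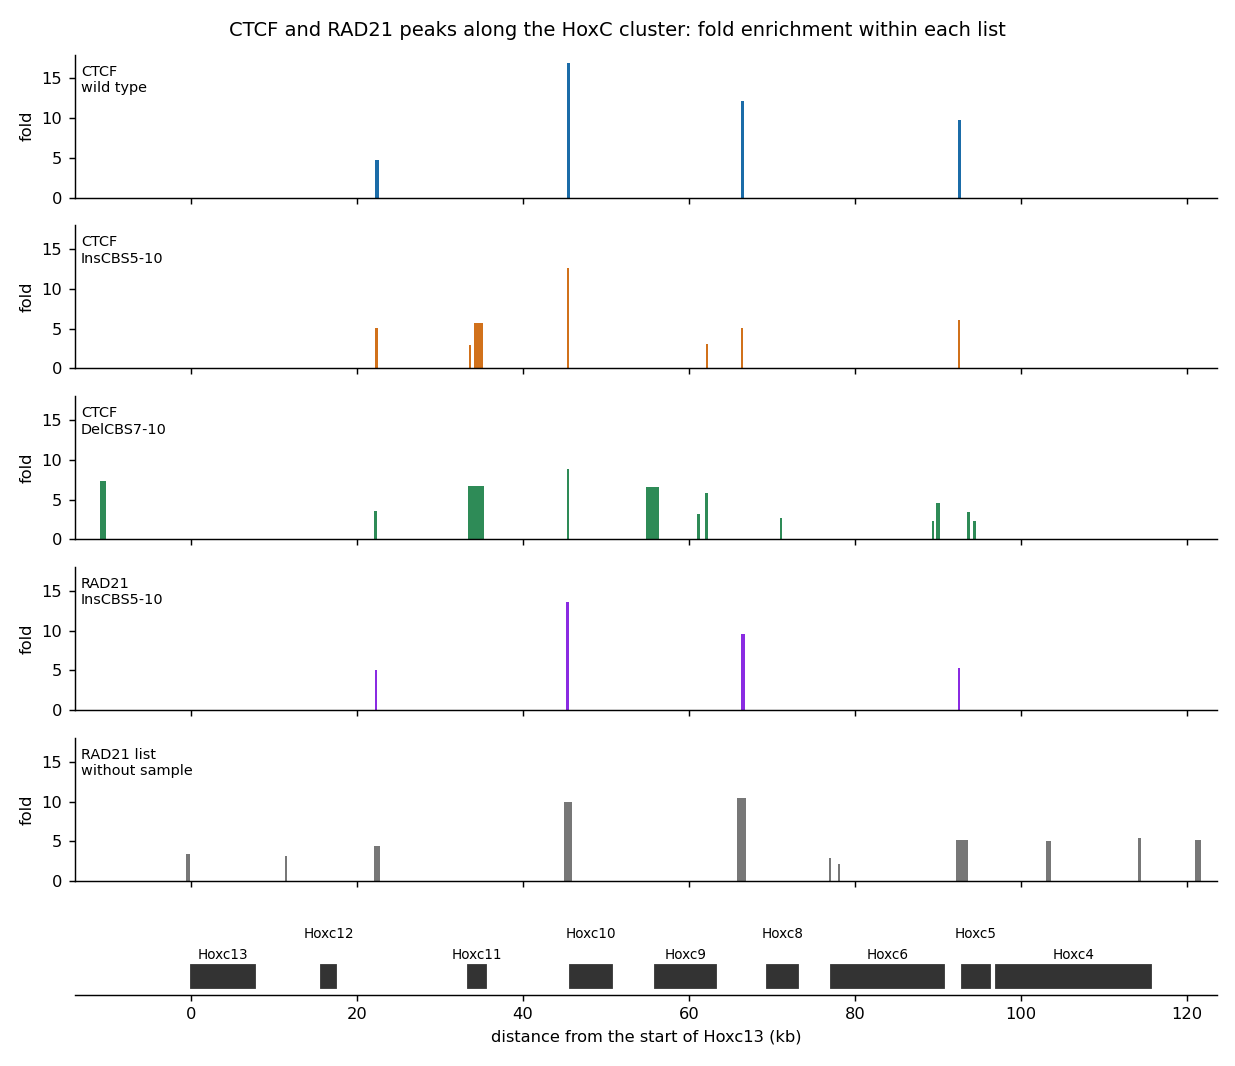
Fold enrichment (vertical axes, each within its own list) of CTCF and RAD21 peaks against distance from the start of Hoxc13 in kb; each bar is 1 peak, drawn at its width (the narrowest slightly widened to be visible), with the 9 Hoxc genes as boxes below. The 4 wild-type CTCF peaks lie between genes and recur with RAD21, while DelCBS7-10 has 11 peaks in the cluster and 9 of them lie on genes.

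The strongest of the 4 sites with RAD21 lay 45 bp before Hoxc10, a posterior gene of the trunk and limb. Its CTCF peak was at 102966411 to 102966751 in wild type, with a fold enrichment at the summit over local background of 17.0 and a −log10 q of 115.2. In InsCBS5-10 the fold was 12.6 (−log10 q 38.6) and in DelCBS7-10 it was 8.87 (24.8). Folds depend on each library's own background and depth, so the percentile of the fold within its own list is given as well: 99.3 for wild type, 99.1 for InsCBS5-10 and 93.6 for DelCBS7-10. The site was in the highest decile of all 3 CTCF lists. RAD21 in InsCBS5-10 was called at 102966313 to 102966732 with a fold of 13.6 (percentile 98.7), and the unlabelled RAD21 list had a fold of 10.0 there (percentile 95.2). RAD21 and CTCF summits lay 17 bp apart in InsCBS5-10.

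The site between Hoxc9 and Hoxc8, 2739 bp before Hoxc8, had the next highest wild-type fold. Hoxc9 and Hoxc8 both act in the thoracic part of the axis. The wild-type CTCF peak was at 102987454 to 102987800 (fold 12.2, −log10 q 50.6, percentile 92.8). In InsCBS5-10 the peak there had a fold of 5.07 (−log10 q 7.03, percentile 41.5). DelCBS7-10 had no peak there. Of all wild-type peaks, 34.2% had none in DelCBS7-10, but of the 4793 wild-type peaks in the same decile by fold 59 had none (1.23%, exact Clopper-Pearson 95% interval 0.938 to 1.59, counting error only). RAD21 was strong at this site, with a fold of 9.58 in InsCBS5-10 (percentile 86.2) and of 10.4 in the unlabelled list (percentile 96.4), where it was the strongest peak of the cluster.

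The third site lay 78 bp before Hoxc5, between it and Hoxc6, both genes of the neck and anterior thorax. Wild type had CTCF at 103013559 to 103013930, with 2 summits of fold 9.83 and 4.03 that lay at 103013680 and 103013875 (−log10 q of 36.0 at the higher, percentile 82.2). InsCBS5-10 had a peak of 162 bp there with a fold of 6.06 (−log10 q 10.3, percentile 58.0). DelCBS7-10 again had none, which 2.00% (1.63 to 2.44) of the 4793 wild-type peaks in the same decile shared. RAD21 in InsCBS5-10 had a fold of 5.25 (percentile 35.8) and its summit was 7 bp from that of CTCF. In the unlabelled list the RAD21 peak was 1549 bp wide with 5 summits, of which the highest (5.22) lay at 103013664.

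The weakest site with RAD21 lay between Hoxc12 and Hotair, 4600 bp from the end of Hoxc12. Wild type had CTCF at 102943336 to 102943733 (fold 4.71, −log10 q 7.83, percentile 40.7), InsCBS5-10 a fold of 5.07 (5.77, percentile 41.5) and DelCBS7-10 one of 3.57 (3.05, percentile 15.5). All 3 lists thus held it, as they held the site before Hoxc10. RAD21 had a fold of 5.05 in InsCBS5-10 (percentile 32.2) and 4.46 in the unlabelled list (percentile 54.4).

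Of the 7 CTCF peaks of InsCBS5-10 in the cluster, those at these 4 sites overlapped RAD21, against 48.2% of all InsCBS5-10 CTCF peaks, a share not far from the cluster's. All 4 wild-type peaks overlapped a peak of the unlabelled list, against 68.7% of all wild-type peaks. In the deciles of the 3 stronger sites 98.3% overlapped one, and in that of the weakest 74.1%, so that 4 of 4 is not set apart from peaks of like strength. By fold, the order in wild type was Hoxc10, Hoxc9 to Hoxc8, Hoxc6 to Hoxc5, Hoxc12 to Hotair, and RAD21 in InsCBS5-10 had the same order. In the unlabelled RAD21 list Hoxc9 to Hoxc8 (10.4) came before Hoxc10 (10.0). In InsCBS5-10 CTCF the last 2 places went to Hoxc12 to Hotair and Hoxc9 to Hoxc8, both at 5.07. Without replicates, it cannot be said which neighbours in these orders differ.

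The 4 sites were spaced rather evenly, with summit distances of 23.2, 21.0 and 26.0 kb. In wild type these sites parted the cluster into 5 stretches without a CTCF peak, which held Hoxc13 and Hoxc12, then Hoxc11, then Hoxc10 and Hoxc9, then Hoxc8 and Hoxc6, and last Hoxc5 and Hoxc4. The outer stretches were the longest. The one with Hoxc13 and Hoxc12 ran for 135.6 kb to the next wild-type peak before the cluster, and that with Hoxc5 and Hoxc4 for 78.5 kb to the next peak beyond it. The inner 3 measured 22.7, 20.7 and 25.8 kb.

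**Figure D2:**
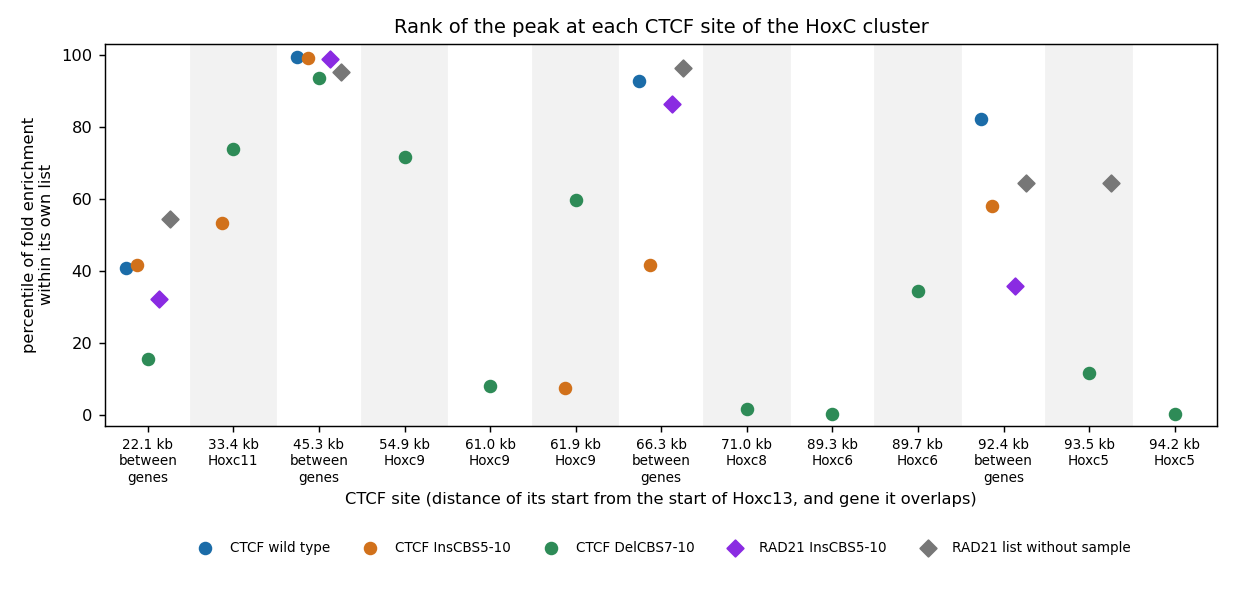
Percentile of fold enrichment within its own list (vertical axis) for the peak at each of the 13 CTCF sites of the cluster (horizontal axis, in order from Hoxc13), with circles for CTCF and diamonds for RAD21; where a list has 2 peaks at a site, the higher is shown. The site before Hoxc10 has its lowest percentile, 93.6, in DelCBS7-10, and the 9 sites on genes have no wild-type point.

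Of the 9 sites on gene bodies, those over Hoxc11 and at the start of Hoxc9 stood out by width. Hoxc11 specifies lumbosacral levels. DelCBS7-10 had 1 CTCF peak of 1906 bp over it, at 102954528 to 102956433, while the gene is 2176 bp long. It held 5 summits with folds of 5.24, 5.44, 4.89, 6.71 and 6.41 from the start to the end of the gene (−log10 q of 32.2 to 60.7, percentile of the highest 73.9). InsCBS5-10 had a peak of 229 bp (fold 2.97) and one of 1094 bp (102955201 to 102956294) over the same gene, the latter with 4 summits of fold 3.83, 5.76, 3.99 and 3.99. Wild type and both RAD21 lists had no peak on Hoxc11, and the nearest wild-type peak was 9710 bp away.

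The peak at the start of Hoxc9 was in DelCBS7-10 alone. It ran for 1478 bp, from 102976009 to 102977486, with folds of 5.80 and 6.56 at 2 summits, the higher 74 bp inside the gene by its annotated start (−log10 q 35.9, percentile 71.5). These 2 sites were the only ones of the cluster with a CTCF peak at or above 800 bp, the limit for a wide peak. Below that limit the widest CTCF peak of the cluster measured 483 bp, and the 4 sites with RAD21 had CTCF peaks of 162 to 398 bp. RAD21 peaks of InsCBS5-10 at these 4 sites were narrow too, at 193 to 461 bp. Only the unlabelled RAD21 list had wide ones, of 961, 1024 and 1549 bp at the sites before Hoxc10, Hoxc8 and Hoxc5.

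Wide CTCF peaks were a small share of each list, and most of them had RAD21 and a wild-type counterpart. Peaks of 800 bp or more made up 2.97% of InsCBS5-10 peaks and 2.97% of DelCBS7-10 peaks. RAD21, measured in InsCBS5-10 for both mutants, overlapped 65.8% of the wide peaks of InsCBS5-10 and 61.6% of those of DelCBS7-10, and a wild-type peak overlapped all but 6 of 1023 and all but 64 of 1088. The peak over Hoxc11 was 1 of those 6, none of which overlapped RAD21. The peaks over Hoxc11 and Hoxc9 were 2 of those 64, of which 59 did not overlap RAD21.

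**Figure D3:**
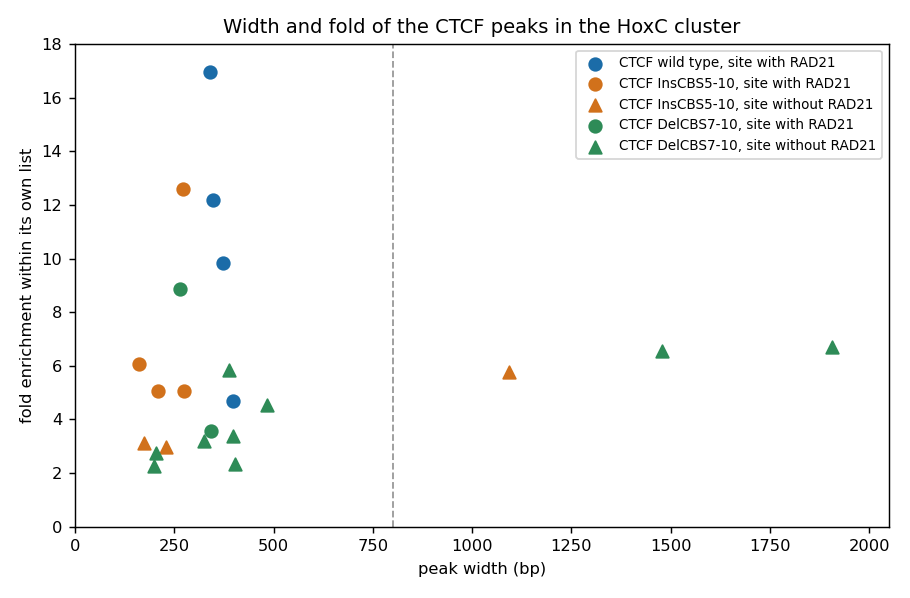
Width in bp (horizontal axis) against fold enrichment within its own list (vertical axis) for the 22 CTCF peaks of the cluster, with circles for sites with RAD21 in InsCBS5-10, triangles for sites without, and a dashed line at 800 bp. Circles keep under 400 bp and include the highest folds, and the 3 peaks beyond the line are triangles from the mutants.

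Other gene-body sites were narrower. Within Hoxc9, DelCBS7-10 had a peak of 388 bp (102983069 to 102983456, fold 5.83, −log10 q 18.6), where InsCBS5-10 had one of fold 3.12 (−log10 q 1.93), and a weaker one of fold 3.18 at 102982094 to 102982417. Within Hoxc6, DelCBS7-10 had peaks of fold 2.27 (103010463 to 103010660) and 4.53 (103010867 to 103011349, −log10 q 12.0). Within Hoxc5 it had peaks of fold 3.39 (103014641 to 103015038, −log10 q 5.43) and 2.35 (103015374 to 103015777), and within Hoxc8 one of fold 2.73 (102992084 to 102992287). The weakest of them were near the calling limit: the peaks of fold 2.27, 2.35 and 2.73 had a −log10 q of 1.32, 1.40 and 1.76, where 1.30 is the smallest in any list. When only peaks with a −log10 q of at least 5 were kept, 10 sites remained, 6 of them without a wild-type peak and 1 called in all 3 lists.

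In the unlabelled list, the RAD21 peak of 1549 bp (103013280 to 103014828) ran from before Hoxc5 into the gene and overlapped the CTCF peak of fold 3.39. Its highest summit lay 1252 bp from the summit of that CTCF peak. Its weakest summit, at 103014753 (fold 1.98, −log10 q 3.14), lay within the CTCF peak. The peak of fold 3.39 within Hoxc5 covered Mir615 (103014910 to 103015001), whose mature microRNAs are shown because they are the transcribed sequence under this DelCBS7-10 site (RefSeq, GRCm38.p6, plus strand). The capitals mark the seed, bases 2 to 8, through which a microRNA finds its targets. MicroRNA 196a, which is known to repress Hox genes, is shown beside them, since its gene Mir196a-2 (102973350 to 102973434) is the other one of the cluster and no list had a peak over it. The 3 seeds differ.
mmu-miR-615-5p (chr15:103014926-103014947): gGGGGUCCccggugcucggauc
mmu-miR-615-3p (chr15:103014969-103014990): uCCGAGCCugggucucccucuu
mmu-miR-196a-5p (chr15:102973365-102973386): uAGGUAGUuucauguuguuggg

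Counted by gene, no Hoxc gene had a wild-type CTCF peak on its body, 2 had one in the InsCBS5-10 list (Hoxc11 and Hoxc9) and 5 had one in the DelCBS7-10 list (Hoxc11, Hoxc9, Hoxc8, Hoxc6 and Hoxc5). Of all protein-coding genes outside chromosome 11, which are mostly longer, the share with one was 49.1% for wild type, 40.7% for InsCBS5-10 and 43.2% for DelCBS7-10. Within 5 kb of the gene the counts were 7, 8 and 8 of 9, against 64.0%, 55.2% and 57.7% of all. These counts were nearly the same in each list. Neighbouring genes shared peaks, so they are not separate hits: in wild type the 7 genes had only the 4 peaks of the cluster between them. Hoxc13 had no CTCF peak within 5 kb in any list: the nearest wild-type one was 14522 bp away, and the nearest in DelCBS7-10 was a peak 10290 bp before it (102910138 to 102910841, fold 7.33), which neither other CTCF list held. Hoxc11 had none within 5 kb in wild type.

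Over all chromosomes but 11, sites without a wild-type peak overlapped a protein-coding gene about as often (50.8%) as sites with one (49.4%). In the cluster 9 of 9 and 0 of 4 did. This split rests in part on short distances. The wild-type sites before Hoxc10 and Hoxc5 lay 45 and 78 bp from the gene, and the site at the start of Hoxc9 overlapped it only in part. Of the 9 sites, 7 were called in DelCBS7-10 alone, which is 1 library. Hoxc genes cover 55.1% of the cluster.

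Of the 11 DelCBS7-10 peaks in the cluster 9 had no wild-type counterpart, against 14.0% of all DelCBS7-10 peaks. For InsCBS5-10 this was 3 of 7, against 12.3%. Neither whole-list share was matched for peak strength. The 9 peaks ranked from percentile 0.235 to 73.9 of the DelCBS7-10 list, and the 3 from 3.71 to 53.1 of the InsCBS5-10 list. In the other direction, all 4 wild-type peaks were called in InsCBS5-10, where 36.8% of all wild-type peaks were missing. In their own deciles by fold the missing share was 1.17% (the sites before Hoxc10 and Hoxc8), 1.98% (before Hoxc5) and 33.7% (beyond Hoxc12), so that 4 of 4 is close to what peaks of this strength showed. The lists with more peaks in the cluster also covered more of it: 1458 bp in wild type, 2413 bp in InsCBS5-10 and 6391 bp in DelCBS7-10. Over all chromosomes wild type had the largest CTCF list, with 47931 peaks. Since read numbers are unknown here, the part of depth in these counts was not tested. With the strongest 34499 peaks of each CTCF list, 6 sites of 10 had no wild-type peak and 2 were in all 3 lists.

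Beyond Hoxc4, 9 of 10 sites up to the end of the window were called in all 3 CTCF lists and none was confined to the mutants. The strongest of these lay within Smug1, a DNA repair glycosylase (103165408 to 103165810 in wild type), with folds of 12.6, 9.13 and 7.93 in wild type, InsCBS5-10 and DelCBS7-10 and RAD21 folds of 10.3 in InsCBS5-10 and 8.23 in the unlabelled list. Cbx5 encodes a heterochromatin protein. A site at its edge nearest to HoxC had CTCF folds of 8.12, 5.37 and 7.29 and no RAD21 peak in either list. Only the DelCBS7-10 peak (to 103191707) reached into Cbx5, which begins at 103191546. In all, 6 of these 10 sites carried RAD21 in InsCBS5-10.

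Before Hoxc13, 6 of 13 sites were called in all 3 CTCF lists and 6 had no wild-type peak. Of the latter, 4 lay on Calcoco1, a nuclear receptor coactivator, with InsCBS5-10 folds of 2.84 to 3.68 at 3 of them, and the fifth was within the noncoding gene Gm36560 (fold 2.78). The sixth was the DelCBS7-10 peak before Hoxc13. The strongest site lay 20421 bp from Calcoco1 (102742603 to 102743036 in wild type), with CTCF folds of 13.8, 10.5 and 8.72 in the same order and RAD21 folds of 5.57 and 6.10. RAD21 was higher at a site within Gm36560 (102761595 to 102762144), with 10.1 in InsCBS5-10, where CTCF had folds of 7.79, 4.18 and 5.10.

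The unlabelled RAD21 list had 9 peaks in the cluster, and 5 of them touched no CTCF peak of any list, against 43.2% of that whole list, again not far apart. Its peaks were wider than those of the other lists, with a median of 480 bp against 304 to 321 bp in the CTCF lists, and 17.1% were 800 bp or more. The 5 lay between Hoxc13 and Hoxc12 (fold 3.19), on Hoxc6 (2.85 and 2.14) and on Hoxc4 (4.99 at 103024231 to 103024788 and 5.45 at 103035261 to 103035670). A further one lay 171 bp before Hoxc13 (3.35). In InsCBS5-10, RAD21 had no peak at these 6 places.

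The promoter window of Gm29905 lay in part under one of these peaks, and that of Hoxc4 is shown as the one Hoxc promoter at hand. The RefSeq table of promoters (GRCm38.p6, 300 bases around the start) matched 1 of 9 Hoxc genes, Hoxc4, for a start that lies inside the annotated gene span. Its window was searched on both strands for a CTCF-like core, CCNNNAG followed after any 2 bases by GGC, which 8.61% of 32817 promoter windows hold. It holds 1 match, on the reverse strand from base 178, in capitals below. The CTCF peak nearest to this window, in DelCBS7-10, was 18368 bp away, and the nearest peak of the unlabelled RAD21 list was 817 bp away. The window of Gm29905, a noncoding gene on the minus strand at the start of Hoxc6 (102997332 to 102998167), overlapped the unlabelled list's peak of fold 2.85 by 141 bp and has no match.
Hoxc4 (chr15:103034145-103034444, plus strand): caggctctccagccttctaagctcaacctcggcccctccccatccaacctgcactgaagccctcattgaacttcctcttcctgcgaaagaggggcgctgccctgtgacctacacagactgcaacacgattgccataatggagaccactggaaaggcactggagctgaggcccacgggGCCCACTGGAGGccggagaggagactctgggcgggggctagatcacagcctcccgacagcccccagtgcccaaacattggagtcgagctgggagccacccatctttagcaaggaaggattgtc
Gm29905 (chr15:102998118-102998417, minus strand): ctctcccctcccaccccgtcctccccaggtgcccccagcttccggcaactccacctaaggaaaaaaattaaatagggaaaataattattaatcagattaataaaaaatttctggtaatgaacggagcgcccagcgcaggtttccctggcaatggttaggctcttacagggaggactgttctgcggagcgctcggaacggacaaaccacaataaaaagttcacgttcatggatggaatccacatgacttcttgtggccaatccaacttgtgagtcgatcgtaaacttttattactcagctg

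HoxA (chromosome 6, 11 genes over 105.5 kb) and HoxD (chromosome 2, 9 genes over 96.9 kb) were measured in the same way for comparison. Wild type had 6 CTCF peaks in each, and DelCBS7-10 had 7 in each. Sites without a wild-type peak numbered 2 of 8 in HoxA and 3 of 9 in HoxD, and 4 sites of each cluster were in all 3 lists. Per 100 kb, wild type had 3.46 CTCF peaks in HoxC, 5.69 in HoxA and 6.19 in HoxD, and DelCBS7-10 had 9.51, 6.63 and 7.22. With a −log10 q of 5 or more, DelCBS7-10 had 6.05 in HoxC, 6.63 in HoxA and 7.22 in HoxD, and with the strongest 34499 peaks of each CTCF list 6.91, 6.63 and 7.22. In both settings HoxC no longer had the most DelCBS7-10 peaks per 100 kb. With all peaks kept, HoxC had the fewest wild-type peaks per length of the 3 clusters and the most sites without one. Wide DelCBS7-10 peaks without a wild-type peak or RAD21 were also in HoxA (1, of 980 bp) and HoxD (2, of 1120 and 1086 bp). With 1 library per group, the differences between clusters have no test.

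**Figure D4:**
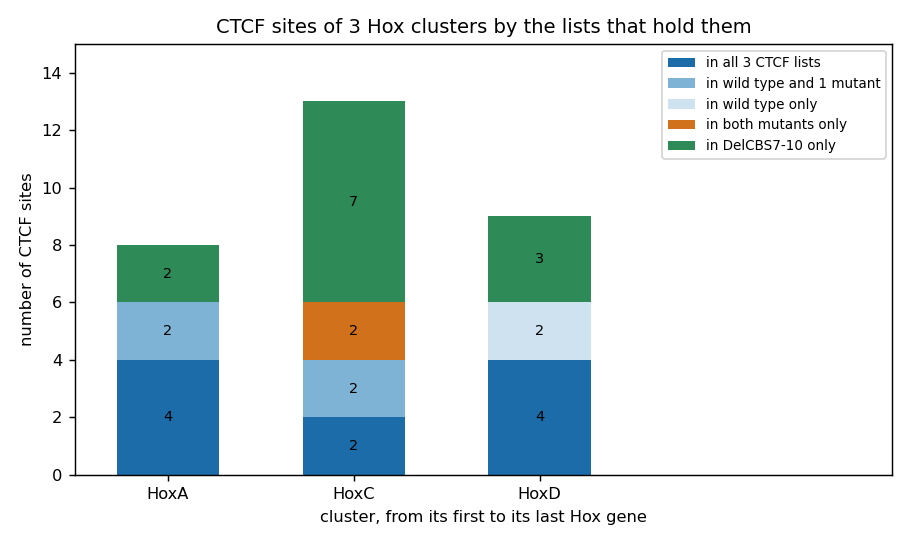
Number of CTCF sites (vertical axis) in the HoxA, HoxC and HoxD clusters, stacked by the CTCF lists that hold them. HoxC has 13 sites with 9 in mutant lists only, HoxA has 8 with 2, and HoxD has 9 with 3.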

How the data were processed

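The data are peak lists in narrowPeak form for 4 labelled ChIPmentation libraries, 1 per group, plus 1 RAD21 list with no sample in the labels. Per the submitters' processing notes the authors used cutadapt 4.1, MACS2 2.2.7.1 and mm10. The chromosome names show an edited genome with 2 versions of chromosome 11. The sources used here do not give the aligner, control or caller options. Fold enrichment, as deposited, is the ratio at the summit over local background within 1 library, and the deposited −log10 q is likewise computed within a list; the smallest is 1.30. The authors' summit offset (column 10, another unit) was used to place peaks. Read depth is unknown from these files.

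Rows with the same chromosome, start and end were collapsed, and all other contigs than the 19 autosomes, X and Y were left out, the second version of chromosome 11 among them. CTCF peaks that overlapped by 1 bp or more formed sites (Python 3.11.15, scipy 1.17.1), and the overlap code was tested on simulated peaks. Exact 95% intervals are Clopper-Pearson. Named genes are the 9 members and genes that a site touches or flanks. Members, lists and limits were chosen with earlier results of these data known. Alternatives were a stricter q, every summit row, overlap by 50% of the shorter peak, other limits of width and distance, widened cluster limits and, added after seeing the data, equal list sizes and leaving out the DelCBS7-10 list.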

Additional observations from a re-analysis of the deposited data

How the results depend on the processing

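No paired analysis was possible because each group has 1 library. With a −log10 q of 5 or more, DelCBS7-10 had 7 CTCF peaks in the cluster in place of 11 (6.05 per 100 kb in place of 9.51), and 1 site in place of 2 was called in all 3 CTCF lists; 21 of 24 results stayed within 1.5 times. Counting every summit row gave 14 RAD21 peaks in the unlabelled list in place of 9, and 11.4 DelCBS7-10 peaks per 100 kb in HoxA in place of 6.63. Within 1 kb of a gene, wild type had a CTCF peak at 2 Hoxc genes in place of 7 and InsCBS5-10 at 4 in place of 8. Without the DelCBS7-10 list, 3 sites had no wild-type peak in place of 9, and 1 was wide in place of 2, as follows from leaving out a list. With equal list sizes all 22 results stayed within 1.5 times, but HoxC fell behind HoxD in DelCBS7-10 peaks per 100 kb (6.91 and 7.22), as it did with the stricter q. In both settings 6 sites had no wild-type peak in place of 9, a change just at the limit of 1.5 times. Also within 1.5 times were all 18 results with limits widened by 20 kb and those with overlap by 50% of the shorter peak, with wide limits of 500 and 1000 bp and within 10 kb of a gene. Where no cause is given, the cause was not tested. Read numbers are unknown and the part of depth was not tested. A site without a peak was not called, which does not show that it was unbound.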
